A study of Homo sapiens with 16 samples.

Results

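The genes described here encode 3 groups of receptor tyrosine kinases with their ligands: the TAM receptors (*AXL*, *MERTK* and *TYRO3*) with the ligands *GAS6* and *PROS1*, *RET* with its co-receptor *GFRA1*, and *MET* with its ligand *HGF*. They were taken by gene symbol and matched to the Ensembl IDs of the count and TPM files, and all 9 were found among 57820 IDs. Bulk RNA-Seq had been done on sublines of MDA-MB-231 and MDA-MB-436, which are mesenchymal triple-negative breast cancer cell lines. Both lines had been stably transfected with 7TGP, a reporter in which Tcf/Lef binding sites drive eGFP, selected with puromycin, and sorted repeatedly by eGFP into a 7TGP-negative and a 7TGP-positive subline. All groups therefore carry the reporter vector, and none received an added Wnt ligand. Each of the 4 sublines was grown in low serum (0.5% FBS, harvested on day 3) and in standard serum (10% FBS, harvested on day 6), with 2 biological replicates, which gives 8 groups and 16 libraries. Each reporter state of a cell line is 1 sorted subline, so the reporter state and any other property of that subline cannot be told apart, and the 7TGP-positive sublines still held a minority of eGFP-negative cells by the study's flow cytometry. Serum, day, library kit and sequencing run changed together, so the serum conditions are set side by side and were never tested against each other. The study kept MDA-MB-231 in a DMEM-based medium and MDA-MB-436 in RPMI. Cell line and culture medium therefore cannot be told apart in any comparison between the lines.

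TAM receptors bind GAS6 and protein S, the product of PROS1, which bridge them to phosphatidylserine on dying cells. AXL binds GAS6 alone and is best known in mesenchymal and drug-resistant carcinoma cells, MERTK in phagocytosis and TYRO3 in the nervous system. RET is reached by ligands of the GDNF family through GPI-anchored co-receptors, of which GFRA1 is the one for GDNF itself, and this pair is known in breast cancer mainly from hormone receptor-positive tumours. MET is the receptor of hepatocyte growth factor, the product of HGF, which is typically made by stromal cells and acts on epithelial and carcinoma cells.

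Promoter sequences were examined because the reporter that defined the sublines reads Tcf/Lef sites. RefSeq (GRCh38.p14) gives 15 promoters for the 9 genes, each 250 bases before to 50 bases after a transcription start. The TCF/LEF core ATCAAAG, searched on both strands, was in 0 of the 15 and in 2.62% of all 35116 promoters. The shorter form TCAAAG, which the longer core contains, was in 1 promoter of *GFRA1* and in 12.9% of all promoters. The GC box GGGCGG was in 9 of the 15, which covers all genes but *HGF*, against 45.0% of all promoters. The genes whose level differed by at least 2-fold between reporter states are shown, with the 250 bases before the start for *AXL* (chr19:41218973-41219222, plus strand), *GAS6* (chr13:113864077-113864326, minus strand) and *RET* (chr10:43076819-43077068, plus strand), and for *GFRA1* the 30 bases around its TCAAAG (chr10:116272281-116272310, minus strand). Capitals mark GC boxes (GGGCGG or its reverse complement CCGCCC) in the first 3 and TCAAAG in *GFRA1*.
AXL: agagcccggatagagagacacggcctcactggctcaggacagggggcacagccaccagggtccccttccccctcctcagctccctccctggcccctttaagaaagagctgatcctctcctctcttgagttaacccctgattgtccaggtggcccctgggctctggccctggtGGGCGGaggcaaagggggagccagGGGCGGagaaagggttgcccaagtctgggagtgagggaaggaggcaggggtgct
GAS6: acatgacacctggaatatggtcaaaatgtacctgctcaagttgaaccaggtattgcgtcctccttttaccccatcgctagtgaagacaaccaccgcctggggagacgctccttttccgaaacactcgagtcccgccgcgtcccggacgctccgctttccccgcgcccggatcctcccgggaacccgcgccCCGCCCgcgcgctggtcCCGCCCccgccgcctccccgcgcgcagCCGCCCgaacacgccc
RET: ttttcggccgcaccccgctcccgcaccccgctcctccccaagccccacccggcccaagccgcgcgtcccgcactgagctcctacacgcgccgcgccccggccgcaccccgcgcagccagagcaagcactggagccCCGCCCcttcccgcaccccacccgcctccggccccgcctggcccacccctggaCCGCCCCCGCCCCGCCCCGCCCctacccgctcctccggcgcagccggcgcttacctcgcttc
GFRA1: tccgctctcatcTCAAAGcgcgccctccct
The *AXL* stretch holds 2 GC boxes, that of *GAS6* 3 and that of *RET* 5, of which 4 overlap or abut in 1 run. A match in these letters is a description of the sequence and not a measured binding site.

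Libraries held 27918418 to 46044073 counts on genes. Tests took in every protein-coding gene that reached 10 counts in sum over the 8 libraries of its serum condition, which left 16069 genes for low serum and 15414 for standard serum. A gene is called where its adjusted p from edgeR's quasi-likelihood test (Benjamini-Hochberg over all genes tested) is under 0.05 and its absolute log2 fold change is at least 1, and SE stands for the standard error of a log2 fold change. Levels of 1 gene across groups are given as CPM (counts scaled to the tested protein-coding total with TMM factors), and levels of different genes are set against each other only as the deposited TPM, which accounts for gene length. The median SD between replicates of log2 CPM was 0.0438 to 0.0668 in 7 groups and 0.0936 in 7TGP-positive MDA-MB-436 in standard serum. Of 6 mesenchymal markers, *VIM* (650 to 5725 CPM), *FN1* (113 to 1833 CPM) and *ZEB1* (29.4 to 170 CPM) were well above the floor in every library, while *SNAI2* (1.07 to 29.7 CPM) and *SPARC* (0.564 to 10.8 CPM) were lower and *CDH2* (up to 243 CPM in MDA-MB-436) did not exceed 1.80 CPM in MDA-MB-231. Of 6 epithelial markers, *KRT18* was at 135 to 345 CPM in every library, *KRT19* at 620 to 959 CPM in MDA-MB-231 and at most 1.24 CPM in MDA-MB-436, and *EPCAM* at 1.63 to 9.96 CPM, whereas *CDH1*, *ESRP1* and *GRHL2* did not exceed 0.450, 1.45 and 0.227 CPM. Their sum was 187 to 1136 CPM, with *KRT18* in both lines and *KRT19* in MDA-MB-231 going against a purely mesenchymal label. The summed level of 5 haematopoietic markers was 4.46 to 13.6 CPM and that of 2 endothelial markers 0.144 to 1.94 CPM, with *CD3E* at most 0.0749 and *CDH5* at most 0.187 CPM. The highest haematopoietic markers were *CD14* (1.92 to 10.8 CPM), *PTPRC* (0.0744 to 10.1 CPM) and *ITGAM* (0.0701 to 5.35 CPM). *PTPRC* was called higher in 7TGP-positive MDA-MB-231 in low serum (log2 fold change 1.14). *ITGAM* was called lower in 7TGP-positive MDA-MB-436 in low and standard serum (-1.22 and -1.48). The mesenchymal markers moved both ways with reporter state. In MDA-MB-231, *VIM* fell (log2 fold change -1.05 in low and -1.03 in standard serum, both called), and in standard serum *FN1* fell by 2.14 and *SPARC* rose by 1.33. In MDA-MB-436, *FN1* rose in low serum (1.37) and *SPARC* in both serum conditions (2.97 and 2.78). Of the epithelial markers, *ESRP1* in MDA-MB-231 in standard serum was the only one called (-1.08). Markers taken as absent or low in triple-negative cells were read as well. *ERBB2* was at 53.4 to 132 CPM in every library, while *ESR1* and *PGR* did not exceed 0.745 and 1.03 CPM. *ESR1* was called higher in 7TGP-positive MDA-MB-231 in standard serum, from 0 CPM to 0.652 and 0.745 CPM. *PGR* was called lower in 7TGP-positive MDA-MB-436 in low serum (-1.93). The part of these markers in other results was not tested. Of 6 Wnt feedback and target genes read as a check of the sort, the summed CPM was higher in both 7TGP-positive libraries than in both 7TGP-negative ones in each cell line and serum condition. The sum gives most weight to the abundant genes, and gene by gene the check was mixed. Only *RNF43* in MDA-MB-231 in standard serum was called higher (log2 fold change 1.11). *NKD1* in low serum and *RNF43* and *SP5* in standard serum were called lower in 7TGP-positive MDA-MB-436. Over the 4 comparisons of reporter states, *LEF1* was higher in each (0.02 to 0.90, not called) and *SP5* lower in each (-0.31 to -1.13).

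The cell lines, each kept in its own medium, differed more in these genes than the reporter states did. Among 7TGP-negative cells, 7 of the 8 genes with a value were called between the lines in each serum condition, against 41.9% of all genes in low serum and 46.7% of all genes in standard serum. *AXL*, *MERTK*, *GAS6* and *MET* were higher in MDA-MB-231, *TYRO3*, *RET* and *GFRA1* were higher in MDA-MB-436, and *PROS1* was not called. *HGF* was not tested, because its counts were too low. The median absolute log2 difference was 2.37 in low serum over the 8 genes and 0.92 over all genes tested, and 2.30 against 1.02 in standard serum. The plot of all 9 genes by library shows this split, with replicates close together in every panel but that of *HGF*.

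Per length, the genes also stood in a different order in the lines. In 7TGP-negative MDA-MB-231 in low serum, *AXL* (672 ± 14.5 TPM, mean ± SD, n = 2) was followed by *GAS6* (177 ± 6.78), *MET* (89.7 ± 1.35), *PROS1* (43.5 ± 0.170), *MERTK* (22.3 ± 0.269) and *TYRO3* (6.36 ± 0.0707), and no neighbours in this order overlapped between libraries. In 7TGP-negative MDA-MB-436 in low serum, *AXL* (82.9 ± 7.89 TPM) was followed by *PROS1* (49.3 ± 1.11) and then by *MET* (44.7 ± 4.89), *GAS6* (44.2 ± 3.29) and *TYRO3* (42.6 ± 3.75), which overlapped with each other. *MERTK* (8.26 ± 0.0707 TPM) and *RET* (8.19 ± 0.870) overlapped as well, and *GFRA1* (6.47 ± 0.544) lay below both. In 7TGP-positive MDA-MB-436 in low serum, *GFRA1* (29.6 ± 2.27 TPM) stood beside *MET* (30.3 ± 2.93), and *RET* (1.60 ± 0.0707) was the least abundant gene above the floor.

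**Figure D1:**
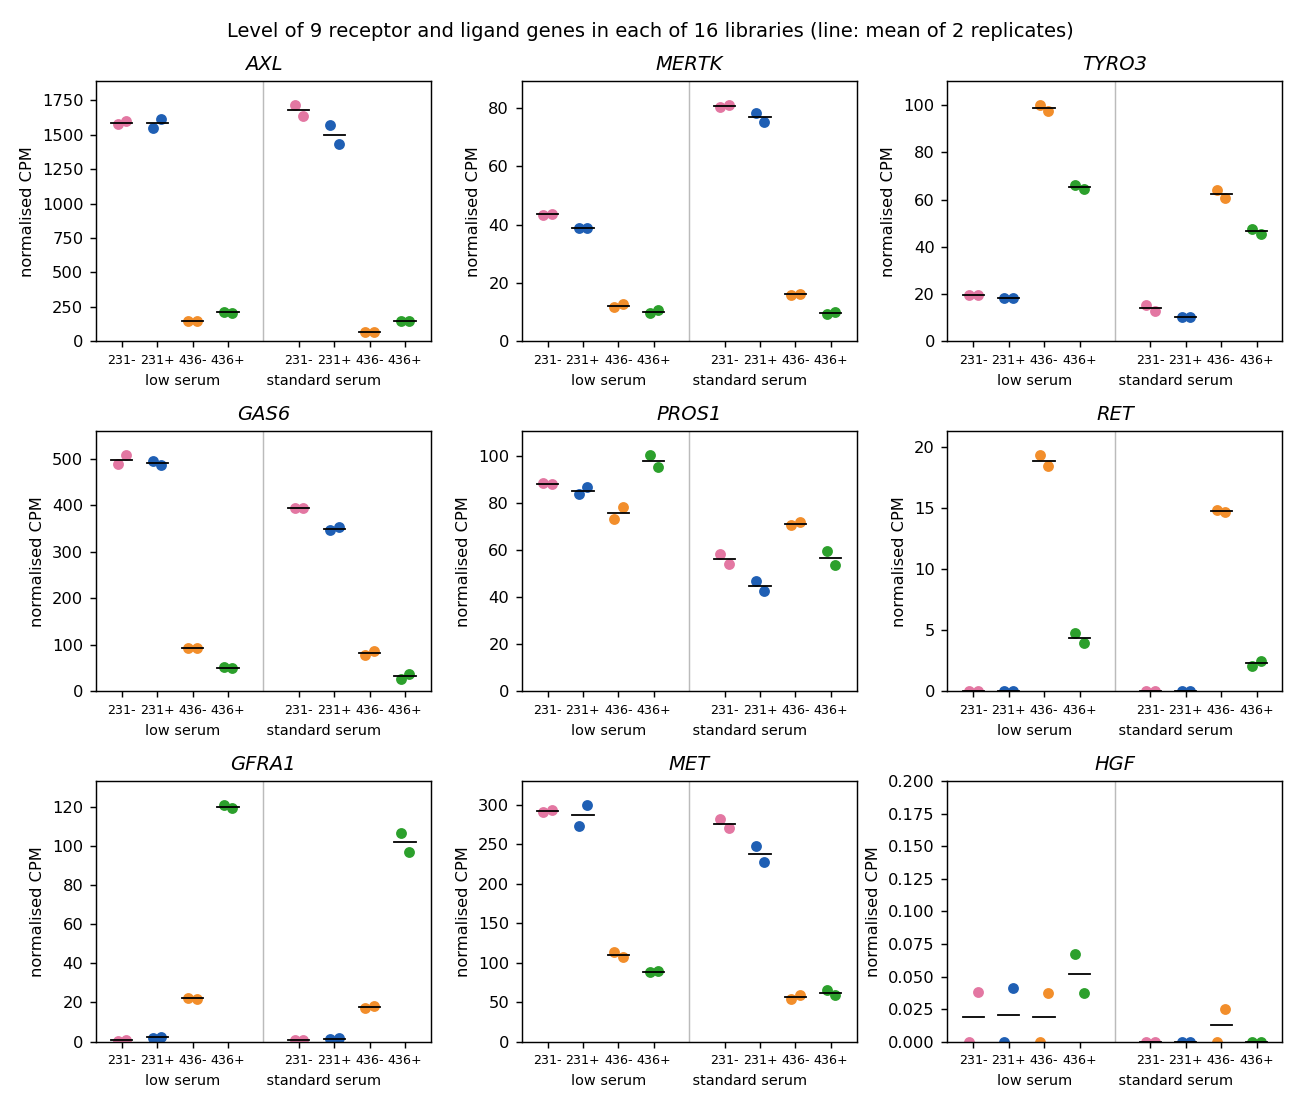
Normalised CPM of each of the 9 genes (vertical axis, from 0, scale set per gene) in every library, with the cell lines marked by the number in their names, - and + for 7TGP-negative and 7TGP-positive, low serum left and standard serum right. Each point is 1 library and each line the mean of 2 replicates; *AXL*, *MERTK*, *GAS6* and *MET* stand higher in MDA-MB-231 and *TYRO3*, *RET* and *GFRA1* in MDA-MB-436, while the *HGF* panel spans only 0 to 0.2 CPM.

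*AXL* (ENSG00000167601, chromosome 19, 41725128 to 41767671 on GRCh37, plus strand) was the most abundant of the 9 genes per length in every group but 7TGP-negative MDA-MB-436 in standard serum. There, *PROS1* stood at 60.3 ± 2.00, *GAS6* at 50.55 ± 4.94 and *AXL*, which overlapped with *GAS6*, at 49.96 ± 2.12 TPM (mean and SD, n = 2). In low serum, *AXL* was at 1574 and 1603 CPM in the 7TGP-negative and 1552 and 1616 CPM in the 7TGP-positive libraries of MDA-MB-231. In MDA-MB-436, the values were 151 and 146 CPM in 7TGP-negative and 215 and 205 CPM in 7TGP-positive libraries. The groups overlapped in MDA-MB-231 and did not in MDA-MB-436, where both 7TGP-positive libraries were higher. The log2 fold change was 0.50 (SE 0.0519, adjusted p = 7.21e-11, edgeR's quasi-likelihood test) in MDA-MB-436, which is under the fold threshold, and 0.00 (SE 0.0495, adjusted p = 0.971) in MDA-MB-231.

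In standard serum, *AXL* rose in 7TGP-positive MDA-MB-436, from 67.5 and 69.9 CPM to 151 and 148 CPM, a log2 fold change of 1.12 (SE 0.0772, adjusted p = 1.34e-09, edgeR). In MDA-MB-231, 1718 and 1638 CPM in 7TGP-negative stood against 1568 and 1433 CPM in 7TGP-positive libraries (log2 fold change -0.16, adjusted p = 0.11). The response differed between the lines, with a difference of log2 fold changes (MDA-MB-231 minus MDA-MB-436) of -1.28 (SE 0.107, adjusted p = 3.04e-08). *AXL* was named by the study among the receptor tyrosine kinases that recur in its enriched terms in standard serum, so its change in these same libraries is not independent evidence. Against a 2-fold null (edgeR's glmTreat), the change in MDA-MB-436 did not pass (adjusted p = 0.217).

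Between the lines, 7TGP-negative MDA-MB-231 exceeded MDA-MB-436 by 10.7-fold in low serum and 24.4-fold in standard serum. By mean TPM, *AXL* ranked 56 of 16069 genes in 7TGP-negative and 54 in 7TGP-positive MDA-MB-231 in low serum, and 107 and 106 of 15414 in standard serum. In MDA-MB-436, its ranks were 1681 and 1008 for low serum, against 3502 and 1514 for standard serum. An unnamed lncRNA gene (ENSG00000269652) overlaps *AXL* on the opposite strand, and whether strand was used in counting is not given in the sources used here.

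*MERTK* (ENSG00000153208, chromosome 2, 112656184 to 112787138, plus strand) was higher in MDA-MB-231, by 3.57-fold in low serum and 4.98-fold in standard serum among 7TGP-negative cells. In low serum, its values were 43.5 and 43.7 CPM against 38.7 and 38.8 CPM in 7TGP-negative and 7TGP-positive MDA-MB-231. The corresponding values in MDA-MB-436 were 11.7 and 12.8 against 9.54 and 10.7 CPM. The groups did not overlap in either line, but the log2 differences were small, -0.17 (adjusted p = 0.05 as rounded, edgeR) in MDA-MB-231 and -0.28 (adjusted p = 0.0111) in MDA-MB-436. In standard serum, *MERTK* was 80.4 and 81.1 against 78.3 and 75.3 CPM in MDA-MB-231 (adjusted p = 0.508) and 16.04 and 16.4 against 9.54 and 9.89 CPM in MDA-MB-436. The last of these is a log2 fold change of -0.74 (SE 0.0862, adjusted p = 1.28e-06), which passed the test on p but not the fold threshold. The difference between the lines' responses in standard serum was 0.67 (adjusted p = 0.000132).

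*TYRO3* (ENSG00000092445, chromosome 15, 41849873 to 41875787, plus strand) had the opposite cell line pattern to its paralogs *AXL* and *MERTK*. Among 7TGP-negative cells, it was higher in MDA-MB-436 by 5.06-fold in low serum and 4.41-fold in standard serum. In MDA-MB-436, it was 100.1 and 97.7 CPM in 7TGP-negative and 66.3 and 64.3 CPM in 7TGP-positive libraries in low serum, and 64.0 and 60.8 against 47.7 and 45.6 CPM in standard serum. Both 7TGP-positive libraries were lower each time, with log2 fold changes of -0.60 (adjusted p = 4.63e-12, edgeR) and -0.42 (adjusted p = 0.000676), neither of which reached the fold threshold. In MDA-MB-231, *TYRO3* was 19.5 and 19.6 against 18.5 and 18.4 CPM in low serum (adjusted p = 0.434) and 15.4 and 12.9 against 10.2 and 10.5 CPM in standard serum (log2 fold change -0.45, adjusted p = 0.00212). Reads from the *TYRO3* pseudogene could not be separated from these counts here, so its values are uncertain to that extent.

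Per length, the make-up of the TAM receptor pool differed by cell line and, in MDA-MB-436, by reporter state. *AXL* made up 95.9% and 95.9% of the summed TPM of the 3 receptors in the libraries of 7TGP-negative MDA-MB-231 in low serum, and 96.2% and 96.4% in 7TGP-positive ones. In MDA-MB-436, its share was 62.3% and 61.6% in 7TGP-negative and 77.4% and 76.6% in 7TGP-positive libraries in low serum, and 49.6% and 51.2% against 75.8% and 75.9% in standard serum. The *AXL* share was thus higher in every 7TGP-positive than in every 7TGP-negative library of MDA-MB-436. *TYRO3* held 34.3% to 36.2% of the pool in 7TGP-negative MDA-MB-436 in standard serum and 0.567% to 0.649% in 7TGP-negative MDA-MB-231. The depth behind TPM values is that of the count tables, and no test was made on these shares.

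**Figure D2:**
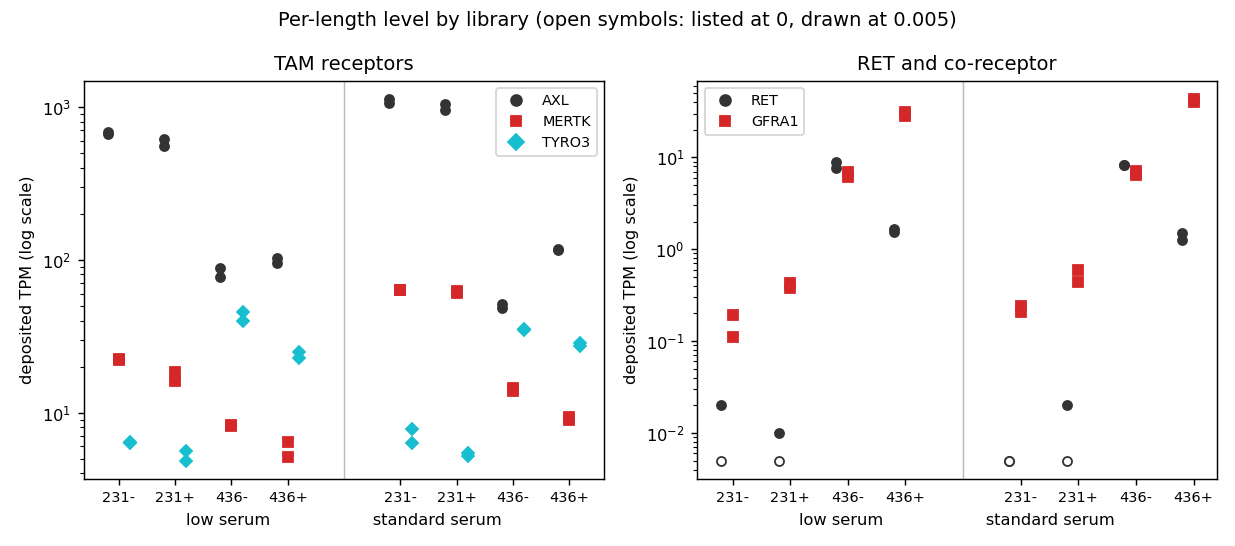
Deposited TPM on a log axis for the TAM receptors (left) and for *RET* and *GFRA1* (right), 1 point per library, with groups as in the plot of levels by library. *AXL* lies above *MERTK* and *TYRO3* in all libraries, and *GFRA1* passes from below *RET* in 7TGP-negative to above it in 7TGP-positive MDA-MB-436; open circles are libraries of MDA-MB-231 in which *RET* is listed at 0.

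Of the TAM ligands, *GAS6* (ENSG00000183087, chromosome 13, 114523522 to 114567049, minus strand) moved in the opposite direction to *AXL* in MDA-MB-436. It fell in standard serum, from 78.0 and 87.3 CPM in 7TGP-negative to 27.8 and 36.6 CPM in 7TGP-positive libraries, a log2 fold change of -1.36 (SE 0.111, adjusted p = 8.91e-07, edgeR). In low serum, it was 94.2 and 93.8 against 51.5 and 51.2 CPM, a log2 fold change of -0.87 (SE 0.0531, adjusted p = 1.28e-17) that did not reach the fold threshold. In MDA-MB-231, *GAS6* was 488 and 509 against 494 and 486 CPM in low serum (adjusted p = 0.744) and 394 and 394 against 346 and 353 CPM in standard serum (adjusted p = 0.247). The groups overlapped only in the first of these. The lines' responses in standard serum differed by 1.19 (SE 0.152, adjusted p = 5.73e-05), although not against a 2-fold null (adjusted p = 0.359, glmTreat). In low serum, they differed by 0.85 (adjusted p = 3.37e-13). *GAS6-AS1* lies on the opposite strand of *GAS6*, with the same limit on strand as for *AXL*.

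*PROS1* (ENSG00000184500, chromosome 3, 93591895 to 93698847, minus strand) was, of the 8 genes tested, the one with the least difference between the lines, 1.16-fold higher in 7TGP-negative MDA-MB-231 in low serum and 1.26-fold higher in 7TGP-negative MDA-MB-436 in standard serum. In MDA-MB-436, it was 73.3 and 78.4 against 100.4 and 95.1 CPM in low serum, higher in both 7TGP-positive libraries (log2 fold change 0.37, adjusted p = 3.52e-07, edgeR). In standard serum, 70.5 and 72.0 CPM stood against 59.7 and 53.8 CPM, lower in both (log2 fold change -0.33, adjusted p = 0.00285). In MDA-MB-231, it was 88.6 and 88.0 against 83.7 and 86.7 CPM in low serum (adjusted p = 0.51) and 58.3 and 54.3 against 47.1 and 42.8 CPM in standard serum (adjusted p = 0.00556). None of these differences reached the fold threshold, and *PROS1* shares sequence with a pseudogene.

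*GAS6* made up 79.9% and 80.7% of the summed TPM of both ligands in 7TGP-negative MDA-MB-231 in low serum. The same shares were 83.0% and 84.0% in standard serum. In MDA-MB-436, its share was 48.2% and 46.3% in 7TGP-negative and 27.0% and 28.0% in 7TGP-positive libraries in low serum. In standard serum, the shares were 44.4% and 46.7% against 25.2% and 33.0%. *PROS1* was therefore the more abundant ligand per length in all 8 libraries of MDA-MB-436, and *GAS6* in all 8 libraries of MDA-MB-231.

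*RET* (ENSG00000165731, chromosome 10, 43572512 to 43625799, plus strand) was detected above the floor only in MDA-MB-436. The 8 MDA-MB-231 libraries held 0 to 2 *RET* counts each, which is no more than the floor (3 counts), so no fold change between reporter states is given there and any difference was not detectable at this depth. Against that floor, 7TGP-negative MDA-MB-436 was at least 168-fold higher in low serum and at least 148-fold higher in standard serum. These are ratios of its mean CPM to the CPM of the floor and carry no confidence limit. In MDA-MB-436, *RET* fell from 19.4 and 18.4 CPM in 7TGP-negative to 4.82 and 3.99 CPM in 7TGP-positive libraries in low serum, with a log2 fold change of -2.09 (SE 0.127, adjusted p = 1.18e-17, edgeR). It also fell in standard serum, from 14.8 and 14.7 CPM to 2.12 and 2.47 CPM, a log2 fold change of -2.69 (SE 0.160, adjusted p = 4.35e-10). The groups did not overlap in either serum condition, and 97 to 144 counts stood behind each value in the 7TGP-positive libraries. *RET*, like *AXL*, was named by the study from these libraries, so its direction is not independent evidence. In bulk samples, fewer cells with a transcript and less of it per cell cannot be told apart.

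*GFRA1* (ENSG00000151892, chromosome 10, 117816436 to 118036315, minus strand) was the only one of the 9 genes called in all 4 comparisons of reporter states, and it was higher in 7TGP-positive cells in each. In MDA-MB-436, it rose from 22.3 and 21.8 CPM to 121 and 119 CPM in low serum, with a log2 fold change of 2.44 (SE 0.0657, adjusted p = 1.36e-29, edgeR). In standard serum, it rose from 17.2 and 18.3 CPM to 106 and 97.0 CPM, a log2 fold change of 2.51 (SE 0.0958, adjusted p = 4.85e-13). *GFRA1* and *RET*, which lie far apart on the same chromosome, therefore changed in opposite directions in these cells. The ratio of *GFRA1* TPM to *RET* TPM was 0.778 and 0.803 in 7TGP-negative and 16.98 and 20.1 in 7TGP-positive libraries in low serum. In standard serum, it was 0.787 and 0.846 against 33.9 and 26.7.

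In MDA-MB-231, *GFRA1* was near the limit of detection, with 14 to 57 counts per library. It rose from 0.518 and 0.870 CPM to 2.06 and 2.13 CPM in low serum (log2 fold change 1.59, SE 0.239, adjusted p = 6e-07, edgeR) and from 0.689 and 0.631 CPM to 1.27 and 1.70 CPM in standard serum (log2 fold change 1.17, SE 0.226, adjusted p = 0.000512). Both 7TGP-positive libraries were higher each time. The call in standard serum rested on 1 library: without replicate 2 of 7TGP-positive MDA-MB-231, the log2 fold change was 0.94 (adjusted p = 0.0214). On the log2(TPM + 1) scale with limma, which compresses low values, it was 0.29 (adjusted p = 0.0858) in low serum and 0.31 (adjusted p = 0.0327) in standard serum. The log2 fold change was larger in MDA-MB-436 by 0.85 in low serum (difference -0.85 as MDA-MB-231 minus MDA-MB-436, SE 0.277, adjusted p = 0.0104), which is under the fold threshold. This difference rested on 1 library: it was -0.39 (adjusted p = 0.507) without replicate 2 of 7TGP-negative MDA-MB-231 and -1.17 (adjusted p = 0.00498) without replicate 1. In standard serum, it was larger by 1.34 (difference -1.34 as MDA-MB-231 minus MDA-MB-436, SE 0.264, adjusted p = 0.000475), which did not pass against a 2-fold null (adjusted p = 0.343, glmTreat).

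*MET* (ENSG00000105976, chromosome 7, 116312250 to 116438431, plus strand) differed little between reporter states. In low serum, it was 291 and 294 against 273 and 300 CPM in MDA-MB-231 and 113 and 107 against 88.1 and 89.4 CPM in MDA-MB-436. In standard serum, the values were 282 and 270 against 248 and 227 CPM in MDA-MB-231 and 54.4 and 59.1 against 64.9 and 58.7 CPM in MDA-MB-436. Groups overlapped in MDA-MB-231 in low serum and in MDA-MB-436 in standard serum. Log2 fold changes were -0.03 (adjusted p = 0.698, edgeR) and -0.22 (adjusted p = 0.0372) in MDA-MB-231 in low and standard serum, and -0.31 (adjusted p = 4.48e-06) and 0.12 (adjusted p = 0.215) in MDA-MB-436. Among 7TGP-negative cells, *MET* was higher in MDA-MB-231, by 2.66-fold in low serum and 4.87-fold in standard serum. On the log2(TPM + 1) scale, the difference in low serum was 0.99, just under the fold threshold.

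*HGF* (ENSG00000019991, chromosome 7, 81328326 to 81399754, minus strand) was not detected above the floor in any library. Its counts were 0 to 2 per library in low serum and 0 or 1 in standard serum, so neither a level nor a difference between groups could be measured. *MET* was thus present in all 16 libraries without a measurable transcript of its ligand.

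Over the 9 genes, fewer were called between reporter states in MDA-MB-231 than in MDA-MB-436, and the share called over all genes tested was also smaller in MDA-MB-231. In MDA-MB-231, 1 of the 7 genes with a value was called in low serum, where 5.9% of all genes tested were called, and 1 of 7 in standard serum, where 7.69% were; *GFRA1* was the gene both times. On adjusted p alone, 2 of 7 passed in low serum, where 38.9% of all genes did, and 4 of 7 in standard serum, where 33% did. In MDA-MB-436, 2 of 8 were called in low serum (*GFRA1* higher, *RET* lower), against 10.5% of all genes, and 4 of 8 in standard serum (*AXL* and *GFRA1* higher, *GAS6* and *RET* lower), against 12.5%. By the same measure, all 8 passed in MDA-MB-436 in low serum, where 52% of all genes did, and 7 of 8 in standard serum, where 49.5% did. The median absolute log2 fold change in MDA-MB-436 was 0.55 in low serum and 0.93 in standard serum over the 8 genes, and 0.31 and 0.36 over all genes. In MDA-MB-231, it was 0.05 and 0.22 over the 7 genes, and 0.24 and 0.26 over all genes.

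**Figure D3:**
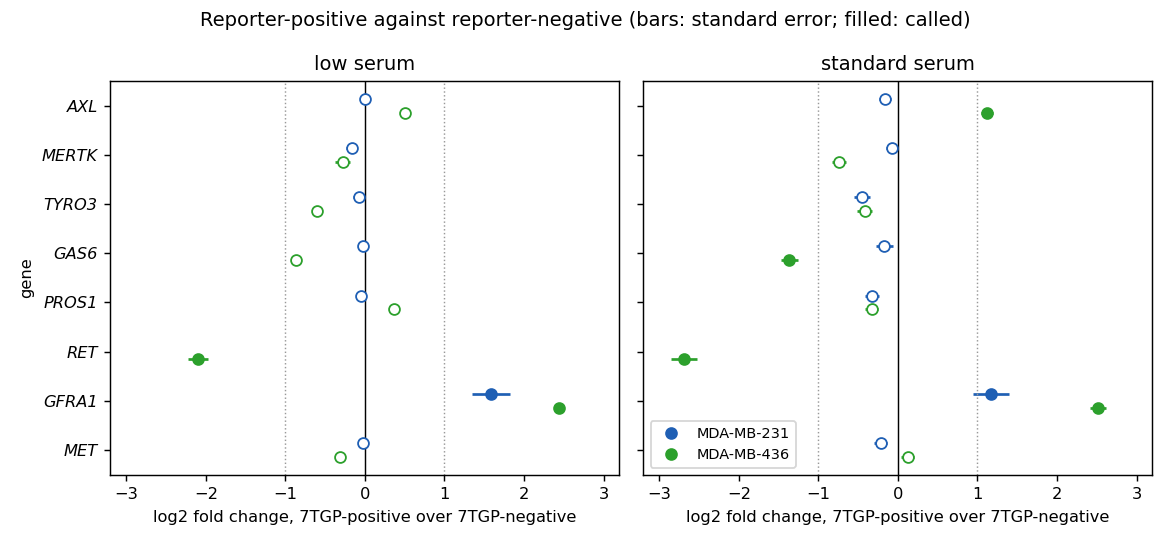
Log2 fold change of 7TGP-positive over 7TGP-negative cells for 8 genes in low serum (left) and standard serum (right), with MDA-MB-231 in blue and MDA-MB-436 in green. Bars are standard errors, filled points are called, dotted lines mark the fold threshold, and *RET* has no point in MDA-MB-231 because all its libraries are at the floor; *RET* lies far left and *GFRA1* far right in MDA-MB-436.

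Differences between the lines in the response to reporter state (MDA-MB-231 minus MDA-MB-436) could be computed for 7 genes. In low serum, 0 of 7 were called, against 11.7% of all genes, whereas 6 passed an adjusted p under 0.05 alone in edgeR's test (45.7% of all genes did) and limma on log2(TPM + 1) called 1 (*GFRA1*). In standard serum, *AXL*, *GAS6* and *GFRA1* were called, 3 of 7 against 13.8% of all genes, and 5 passed on adjusted p alone, against 41.2%. *AXL* and *GFRA1* had the higher log2 fold change in MDA-MB-436, and *GAS6* was called lower in 7TGP-positive MDA-MB-436 but not in MDA-MB-231.

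The other genes of these pathways were read from a list of 43, made up of further ligands, co-receptors, enzymes that process ligands or receptors, and adaptors. In MDA-MB-231, 5 of the 36 with a value were called in low serum (13.9%, against 5.9% of all genes) and 5 of 34 in standard serum (14.7%, against 7.69%). In MDA-MB-436, 4 of 39 were called in low serum (10.3%, against 10.5%) and 6 of 39 in standard serum (15.4%, against 12.5%).

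Of the *RET* pathway genes on that list, *DOK6*, an adaptor that binds phosphorylated *RET*, was called higher in all 4 comparisons. It rose from 2.599 ± 0.251 to 16.8 ± 0.866 CPM in MDA-MB-231 and from 1.46 ± 0.663 to 12.3 ± 0.787 CPM in MDA-MB-436 in low serum (± is the SD, n = 2), log2 fold changes of 2.69 and 3.09. In standard serum, it rose by 2.94 and 1.61 on the log2 scale. *ARTN*, the ligand of the *RET* co-receptor *GFRA3*, rose in MDA-MB-436 from 0.208 ± 0.0215 to 5.15 ± 0.461 CPM in low serum (log2 fold change 4.61, adjusted p = 9.18e-18, edgeR) and from 0.312 ± 0.155 to 2.14 ± 0.147 CPM in standard serum (2.72, adjusted p = 1.14e-06). In MDA-MB-231, *ARTN* was 4.36 ± 0.0412 against 7.22 ± 0.0406 CPM in low serum and 1.72 ± 0.300 against 3.25 ± 0.633 CPM in standard serum, neither of which reached the fold threshold. *GDF15*, a stress-induced ligand that acts through *GFRAL* and *RET*, rose in MDA-MB-231, by 1.09 and 1.06 on the log2 scale in low and standard serum. The co-receptors *GFRA3* and *GFRAL*, and *GDNF*, the ligand of *GFRA1*, were near or under the floor. Their mean did not exceed 0.141 CPM in any group. The related adaptors *DOK4* (log2 fold change -1.76, MDA-MB-231) and *DOK5* (-1.03, MDA-MB-436) were called lower in standard serum. In low serum, *DOK4* was at -0.98 in MDA-MB-231 and -0.64 in MDA-MB-436, and *DOK5* at -0.64 in MDA-MB-436, none of them called. In MDA-MB-436, *DOK4* was at -0.93 and *NRTN*, a ligand of *GFRA2*, at -0.83 in standard serum, under the fold threshold. Of the *RET* pathway genes with a value, 2 of 10 in low serum (20%, against 10.5% of all genes) and 3 of 10 in standard serum (30%, against 12.5%) were called in MDA-MB-436, with a median log2 fold change of 0.15 and -0.50 against 0.01 and 0.00 over all genes. In MDA-MB-231, where *RET* itself was at the floor, 2 of 7 (28.6%, against 5.9%) and 3 of 6 (50%, against 7.69%) were called, with medians of 0.01 and 0.51. In MDA-MB-436 the list thus held calls in both directions in standard serum, and *ARTN* and *DOK6*, the genes called higher, are those shown beside *GFRA1* and *RET* in the plot of log2 fold changes.

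**Figure D4:**
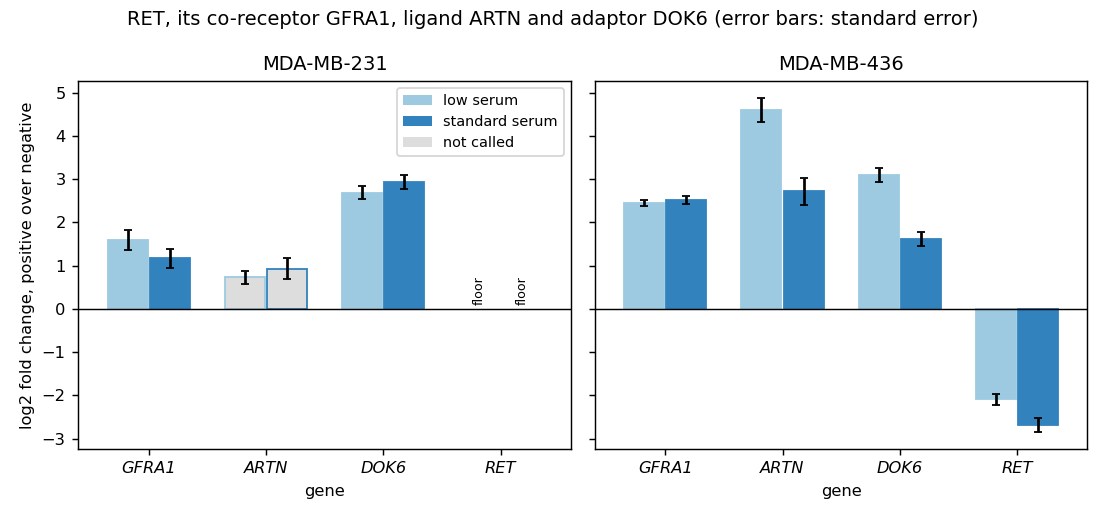
Log2 fold change of 7TGP-positive over 7TGP-negative cells for *GFRA1*, *ARTN*, *DOK6* and *RET* in MDA-MB-231 (left) and MDA-MB-436 (right), the last 3 genes having been picked for the plot after their values were seen. Light bars are low serum, dark bars standard serum, grey bars changes that were not called, and error bars the standard error; the 2 *RET* positions marked floor have no value because no library exceeded 3 counts.

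Of the *MET* pathway genes, *LRIG1*, a transmembrane protein that restrains *MET* and other receptor tyrosine kinases, rose in MDA-MB-231, from 2.599 ± 0.251 to 57.5 ± 0.660 CPM in low serum (log2 fold change 4.47, adjusted p = 4.88e-33, edgeR) and from 0.274 ± 0.189 to 14.5 ± 0.577 CPM in standard serum (5.67, adjusted p = 1.98e-13). In MDA-MB-436, *LRIG1* was 98.7 ± 3.29 against 126 ± 0.673 CPM in low serum and was not called. *ST14*, which encodes matriptase, a protease that activates pro-HGF, rose in MDA-MB-231 in low serum (log2 fold change 1.14, at 0.973 to 2.16 CPM). In MDA-MB-436, *PLXNB1*, a semaphorin receptor that pairs with *MET*, rose in low serum (1.13), *CD44*, a *MET* co-receptor, rose in standard serum (1.21), and *SPINT2*, an inhibitor of pro-HGF activation, fell in standard serum (-1.64, at 0.573 to 0.184 CPM). Of the *MET* pathway genes with a value, 2 of 10 in low serum (20%, against 5.9% of all genes) and 1 of 9 in standard serum (11.1%, against 7.69%) were called in MDA-MB-231. The counts in MDA-MB-436 were 1 of 10 (10%, against 10.5%) and 2 of 10 (20%, against 12.5%).

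Of the genes around the TAM receptors, *TUB*, reported as a *MERTK* ligand, fell in MDA-MB-231 in low serum, from 2.34 ± 0.00982 to 0.849 ± 0.247 CPM (log2 fold change -1.47), and in standard serum (-1.54). None of the genes for vitamin K-dependent carboxylation (*GGCX*, *VKORC1*), which *GAS6* and protein S need for activity, or for receptor shedding (*ADAM10*, *ADAM17*) was called in any of the 4 comparisons by edgeR's test. Of the TAM genes on the list with a value, 1 of 6 was called in each serum condition of MDA-MB-231 (16.7%, against 5.9% and 7.69% of all genes). In MDA-MB-436, 0 of 6 were, against 10.5% and 12.5%. Of 13 adaptors and effectors that the receptors share, *SRC*, a non-receptor tyrosine kinase, was the only one called. It fell in MDA-MB-436, from 68.9 ± 1.14 to 32.0 ± 0.878 CPM in low serum (log2 fold change -1.11, adjusted p = 1.38e-18) and from 67.1 ± 0.136 to 29.96 ± 0.981 CPM in standard serum (-1.16, adjusted p = 7.95e-10). That is 1 of 13 in each serum condition of MDA-MB-436 (7.69%, against 10.5% and 12.5% of all genes). In MDA-MB-231, 0 of 13 were called, against 5.9% and 7.69%. The shared adaptors and effectors were thus called no more often than genes at large.

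Neighbouring genes on the chromosome were read beside each gene, as the median log2 fold change of up to 50 protein-coding genes around it with a mean of at least 1 CPM. For *AXL*, *MERTK*, *TYRO3*, *GAS6*, *PROS1*, *RET*, *GFRA1* and *MET*, this median lay between -0.25 and 0.20 in all 4 comparisons of reporter states. In MDA-MB-436, the medians were 0.01 and 0.10 around *RET* and 0.20 and 0.04 around *GFRA1* in low and standard serum, far smaller than the changes of these genes. Of the 50 neighbours, 7 and 6 were called around *RET* and 5 and 2 around *GFRA1*, against 10.5% and 12.5% of all genes. Of the 9, only *HGF* had a neighbourhood median outside the range above, in MDA-MB-436. Its 50 neighbours (chromosome 7, 74508364 to 92030697 in low serum and 73868120 to 92030697 in standard serum) had medians of 0.99 and 0.97 in MDA-MB-436 and of 0.03 and 0.08 in MDA-MB-231. In MDA-MB-436, 24 and 25 of them were called, against the same 10.5% and 12.5% of all genes. *HGF* itself stayed at the floor. *MET*, further along the same chromosome, had a neighbourhood median of 0.14 in MDA-MB-436 in standard serum.

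**Figure D5:**
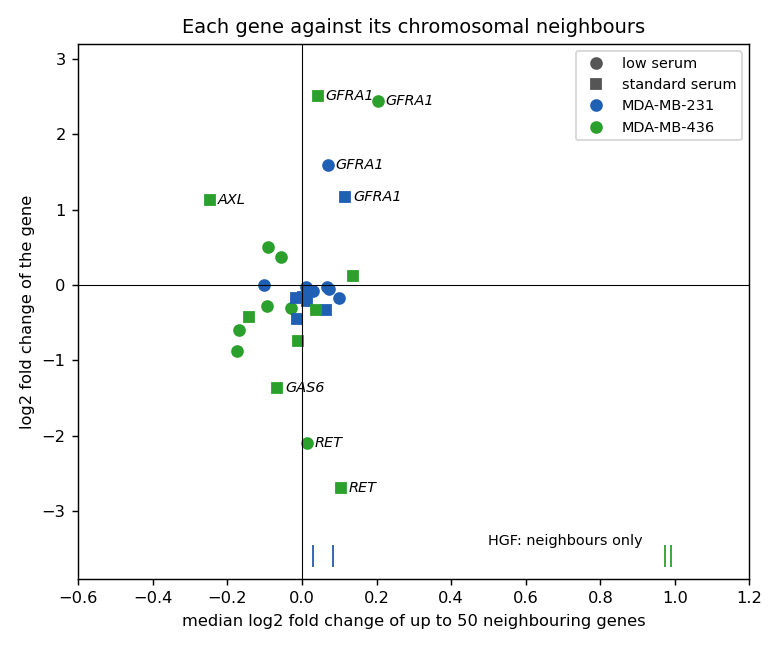
Log2 fold change of each gene (vertical axis) against the median log2 fold change of its chromosomal neighbours (horizontal axis), for reporter-positive over reporter-negative cells. Circles are low serum and squares standard serum, MDA-MB-231 is blue and MDA-MB-436 green, names mark called genes, and ticks at the bottom give the neighbours of *HGF*, near 1 in MDA-MB-436 and near 0 in MDA-MB-231.

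The genes whose pattern over the 16 libraries was most like each of the 9 were found by Pearson's r of log2 CPM, centred within each serum condition, among 11410 protein-coding genes that had 10 counts or more in each library. The libraries form 2 clusters by cell line, so r mostly reflects that split and is given as a description. For *AXL*, these were *INPP4B* (r = 0.997), *STT3B* and *MAML2*, and 1210 genes exceeded 0.95. For *MERTK*, they were *RAC2* (0.998), *AGPAT1* and *EIF2B5*. For *TYRO3*, they were *RTF1* (0.996), which is also on chromosome 15, *RBBP4* and *SLBP*. For *GAS6*, they were *MAT2B* (0.996), *FKBP8* and *VASP*, for *GFRA1* *UMAD1* (0.995), *TXLNG* and *FBLN1*, and for *MET* *RBMS2* (0.999), *EMC2* and *SPOP*. *PROS1*, which did not follow the cell line split, had no gene above 0.95. *RET* and *HGF* did not reach 10 counts in every library and were left out.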

How the data were processed

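The authors aligned reads to hg19 (GRCh37) with STAR and counted read pairs on Gencode v19 genes. The counts were deposited without normalization or filtering, and TPM was deposited by the authors beside them, with its calculation not stated. According to the study's methods, low serum libraries were depleted of ribosomal RNA and standard serum libraries selected for polyadenylated RNA, whereas the labels name 1 kit for all. Depth was 27918418 to 46044073 counts per library. Gene symbols came from Gencode v44 lifted to GRCh37.

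Each serum condition was fitted apart (8 libraries, 4 groups) with TMM factors and edgeR's robust quasi-likelihood test. The SE of a log2 fold change is its size over the root of the F statistic. A group at 3 counts or fewer in every library is at the floor. Alternatives were DESeq2 and its size factors, other filters, biotypes and prior counts, glmTreat, limma-trend on log2(TPM + 1), the replicate number as a block, and leaving out each library. The code was tested on simulated data. The genes and lists were chosen with earlier results of these data known. All 9 genes are named, along with listed pathway genes that were called and the 3 genes most like each in pattern (those for PROS1 are not reported here). P-values measure the spread between biological duplicates of 1 subline. The floor is a fixed count, and ratios against it carry no confidence limit.

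The fits ran in limma 3.58.1, edgeR 4.0.16 and DESeq2 1.42.0 under R 4.3.3, and the plots in matplotlib 3.10.9 with pandas 2.3.3 under Python 3.11.15.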

Additional observations from a re-analysis of the deposited data

Results flagged for a closer look

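The effect of reporter state differed between the cell lines for 3 of the genes in standard serum, by the interaction term of edgeR's quasi-likelihood fit. The differences of log2 fold changes (MDA-MB-231 minus MDA-MB-436) were -1.28 for *AXL*, 1.19 for *GAS6* and -1.34 for *GFRA1*. For *AXL* and *GAS6*, the log2 fold change in MDA-MB-231 was -0.16 and -0.17, and neither passed an adjusted p of 0.05. For *GFRA1*, both lines rose, by 1.17 and 2.51. In low serum, the same differences were -0.51, 0.85 and -0.85, and none reached the fold threshold.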

How the results depend on the processing

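Depth limited what could be said of *RET* in MDA-MB-231 and of *HGF*, and with 2 replicates a group the spread rests on a fit shared by all genes. No called gene of the 9 changed direction under any alternative run. Of the single-gene values, 1112 kept direction and side of the threshold, 26 newly passed, 9 no longer passed and 23 reversed. The causes were not tested, except that adjusted p alone drops the fold criterion and glmTreat raises the null to 2-fold.

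With adjusted p under 0.05 alone, the genes called numbered 2 in MDA-MB-231 in low serum and 4 in standard serum (1 each before), 8 (from 2) and 7 (from 4) in MDA-MB-436, and 6 (from 0) and 5 (from 3) for the difference between lines. Of the other pathway genes, 22 (from 5) and 14 (from 5) then passed in MDA-MB-231, and 22 (from 4) and 19 (from 6) in MDA-MB-436. With glmTreat, 0 genes were called in MDA-MB-231 in either serum condition (adjusted p for *GFRA1* 0.117 and 1), 1 for the difference in standard serum, and 2, 3, 2 and 3 of the other pathway genes in the same order. With limma on log2(TPM + 1), 0 were called in MDA-MB-231 in either serum condition, 1 for the difference in low serum (*GFRA1*, -1.75), and 2 and 3 of the other pathway genes in MDA-MB-231 in low serum and MDA-MB-436 in standard serum, while *GAS6* in MDA-MB-436 in low serum reached -1.08. On this scale, the median over all genes shifted between reporter states by -0.18 and -0.22 in low serum (MDA-MB-231 first), and by 0.02 and 0.09 in standard serum.

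Leaving out 1 library gave 0 to 1 genes called in MDA-MB-231 in standard serum (0 without replicate 2 of its 7TGP-positive cells), 0 to 1 for the difference in low serum (1, *GFRA1* at -1.17, without replicate 1 of 7TGP-negative MDA-MB-231, while *GFRA1* was at -0.39 without replicate 2), and 4 to 7 of the other pathway genes in MDA-MB-436 in low serum (7 without replicate 1 of 7TGP-positive cells). On adjusted p alone, *MERTK* in MDA-MB-436 in low serum, *MET*, *PROS1* and *TYRO3* in MDA-MB-231 in standard serum, and the difference between lines for *MET* in standard serum and *GFRA1* in low serum fell short of 0.05 without at least 1 of the libraries, while *AXL* and *GAS6* in MDA-MB-231 in standard serum, *MET* in MDA-MB-436 in standard serum and *MERTK* in MDA-MB-231 in low serum newly passed. An arm left with 1 library takes the spread of the other groups.

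The values that reversed were small and not called. *AXL* in MDA-MB-231 in low serum became 0.0331 with all biotypes, 0.01002 with size factors, 0.01001 with DESeq2 and 0.00535 with filterByExpr, and -0.0292 to 0.038 without 1 library. *GAS6* and *MET* there became 0.0128 and 0.00854 with all biotypes, and -0.0483 to 0.0131 and -0.0929 to 0.0493 without 1 library. For *PROS1*, the difference between lines in standard serum became -0.00804 with all biotypes, -0.0509 with limma and -0.000771 with no filter, and -0.0741 to 0.0838 without 1 library, and the 7TGP-negative difference in low serum became -0.18 with limma. The *TYRO3* difference in standard serum ran -0.158 to 0.103 without 1 library. With 20 neighbours in place of 50, the medians around *HGF* in MDA-MB-436 were 1.07 and 1.35. Of all neighbourhood medians, 21 moved by at least their SD between replicates and 15 did not. Some changed sign, as around *RET* in MDA-MB-436 in low serum (0.01 to -0.09). Those around the genes other than *HGF* lay between -0.24 and 0.24.

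With the replicate number as a block, the counts of genes called did not move (1, 2, 0 and 7 in low serum, 1, 4, 3 and 7 in standard serum), and 7 other pathway genes were called in MDA-MB-436 in standard serum in place of 6. The labels do not say that a number marks a shared batch, and replicate deviations of the groups correlated at -0.21 to 0.08 in low serum and -0.05 to 0.41 in standard serum, over genes. With the numbers of 7TGP-positive MDA-MB-436 crossed in low serum, chosen after the data were seen, the counts were again 1, 2, 0 and 7.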
